A study of Mus musculus with 2 samples.

Results

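The genes described here encode core proteins of the spliceosome and the SR and hnRNP proteins that guide it. They were taken from a count table of 22556 genes as those with symbols starting with Srsf, Hnrnp, Prpf, Snrp, Sf3a or Sf3b. Hnrnpk, Hnrnpu and Snrpn were left out, which gave 62 genes: 11 Srsf, 18 Hnrnp, 13 Prpf, 11 Snrp, 3 Sf3a and 6 Sf3b. Genes named Snrnp do not match these prefixes and were placed in other lists. The rule used symbols and no measured value. Of the 62 genes, 61 are autosomal and 1, Hnrnph2, is X-linked.

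Messenger RNA was isolated on oligo-dT beads from uninduced iXist-ChrX-Dom cells and sequenced as stranded libraries, so that expression before Xist induction (0 h) could be ranked. iXist-ChrX-Dom is a female XX mouse embryonic stem cell (mESC) line of the strain Dom/129S x Cast, in which the Xist promoter on the Dom/129S allele was exchanged for a TetOn promoter that responds to doxycycline. Both samples were untreated and grown with serum and LIF after feeder fibroblasts had been removed by pre-plating. There is 1 group of 2 replicates, all from this engineered line, and therefore no comparison between conditions. Nothing in the labels says that the replicates came from separate cultures, so p-values measure only the difference between these 2 libraries, which may be technical.

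Splicing is carried out by small nuclear ribonucleoproteins (snRNPs), each an RNA in complex with a protein ring and particle-specific proteins. The ring is made of Sm proteins (Snrp genes), or of LSm proteins in U6. The U1 snRNP recognizes the start of an intron, the U2 snRNP with its SF3a and SF3b complexes binds the branch site, and the U4/U6.U5 tri-snRNP, to which several Prpf proteins belong, then forms the catalytic center. SR proteins mostly promote the use of nearby splice sites, hnRNP proteins often oppose them, and many genes of both kinds control their own mRNA by splicing in exons that send it to nonsense-mediated decay (NMD).

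Totals of assigned fragments were 23716499 in replicate 1 and 20275749 in replicate 2. ES cell markers were present, with 14 of 15 at 10 counts or more in each replicate and a median of 101 TPM (transcripts per 1000000), against a median of 0.103 TPM for 12 neural precursor markers and 0.175 TPM for 18 fibroblast markers. The label gives the cell type as mESC to NPC. At least 1 TPM was reached by 4 of the neural markers, led by Vim (187 TPM) and Slc1a3 (53.1 TPM), and by 5 of the fibroblast markers, led by Fn1 (107 TPM) and Sparc (56.8 TPM). Olig2 and Lum had 0 counts in both replicates. The ES cell markers were not equal between the libraries. By an exact binomial test 13 of 15 were lower and 1 higher in replicate 2, against 45.7% and 15.1% of all genes tested. With TMM factors 8 were lower and 3 higher, against 28.9% and 28.8%. Under a GC trend 9 were lower and 4 higher, against 21.8% and 23.0%. Pou5f1, which encodes the pluripotency factor OCT4, had 1129 counts in replicate 1 and 142 in replicate 2.

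The promoters of 4 members are shown, chosen from the high or low end of counts over all members or of levels within a group. Srsf1 had the most counts of all members, Sf3b1 was the highest SF3b gene, and Sf3a2 and Snrpd2 were the lowest gene of SF3a and of the Sm proteins. Each sequence holds the 250 bases before the RefSeq transcript start (GRCm38.p6), written 5′ to 3′ on the strand of the gene, with CpG dinucleotides in capitals. They lie at chr11:88047123-88047372 (plus strand, Srsf1), chr1:55027479-55027728 (minus strand, Sf3b1), chr10:80798485-80798734 (plus strand, Sf3a2) and chr7:19149588-19149837 (plus strand, Snrpd2).
Srsf1: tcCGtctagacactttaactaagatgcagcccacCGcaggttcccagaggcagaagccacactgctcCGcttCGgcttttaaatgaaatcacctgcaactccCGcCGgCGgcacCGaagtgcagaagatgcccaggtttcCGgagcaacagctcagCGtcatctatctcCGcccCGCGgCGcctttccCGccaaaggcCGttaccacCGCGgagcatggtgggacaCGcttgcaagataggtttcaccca
Sf3b1: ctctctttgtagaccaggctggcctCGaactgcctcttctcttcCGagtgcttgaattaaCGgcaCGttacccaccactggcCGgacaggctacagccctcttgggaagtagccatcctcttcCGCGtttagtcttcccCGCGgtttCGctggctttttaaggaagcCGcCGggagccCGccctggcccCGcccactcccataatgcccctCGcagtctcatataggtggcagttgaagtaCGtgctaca
Sf3a2: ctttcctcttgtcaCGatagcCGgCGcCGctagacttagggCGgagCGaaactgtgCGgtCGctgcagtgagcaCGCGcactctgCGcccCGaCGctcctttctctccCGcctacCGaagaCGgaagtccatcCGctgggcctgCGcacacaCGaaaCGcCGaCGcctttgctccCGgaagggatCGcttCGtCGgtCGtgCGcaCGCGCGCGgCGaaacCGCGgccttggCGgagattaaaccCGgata
Snrpd2: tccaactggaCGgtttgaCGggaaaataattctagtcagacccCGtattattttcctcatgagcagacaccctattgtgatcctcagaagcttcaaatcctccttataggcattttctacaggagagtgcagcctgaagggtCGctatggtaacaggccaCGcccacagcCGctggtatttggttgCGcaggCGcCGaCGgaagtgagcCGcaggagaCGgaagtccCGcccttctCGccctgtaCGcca

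These windows held 19 CpGs in Srsf1, 16 in Sf3b1, 37 in Sf3a2 and 15 in Snrpd2. Of these 4 genes, Sf3a2 had the most CpGs and the lowest mean TPM. A promoter was matched for 54 of the 62 members, with a median of 19 CpGs, against 16 for 9053 genes of at least 1 TPM and 10 for all 16238 matched genes of the table. Letters were searched on both strands. The GC box GGGCGG was found in 36 of 54 members (66.7%), against 61.2% of the genes of at least 1 TPM and 44.4% of all matched genes, and the TATA box TATAAA in 5 (9.26%), against 6.06% and 11.9%. The ETS motif CCGGAAG was present in 18 members (33.3%), against 14.5% and 9.43%. It occurred in all 3 Sf3a genes and in 3 of 4 Sf3b genes, and in 2 of 16 Hnrnp genes, where the CCAAT box was present in 11. The CCAAT box was found in 25 members (46.3%), against 37.4% and 35.8%. These matches describe letters, not bound sites.

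Splicing genes were nearly all expressed, and most of them strongly. At least 10 counts in each replicate were found for 61 of 62 members (98.4%), against 56.2% of all genes in the table. The exception was Sf3b5. Every member reached a mean of 1 TPM, 58 reached 10 TPM and 39 reached 100 TPM. The median member stood at 219 TPM, and 33 of the 62 (53.2%) were at or above the 90th percentile of the 12261 genes with at least 1 TPM. TPM was computed from the deposited counts with the exonic length of each gene. Because fragments in introns were counted too, levels between genes were recomputed with the deposited gene length, introns included, called span TPM below. The study states that intronic reads are very few in its mRNA data, so span TPM mostly changes the length divided by.

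Together the 62 genes took 1.94% of all counts in replicate 1 and 2.16% in replicate 2 (95% Wilson intervals from 1.93 to 1.94 and from 2.15 to 2.17), or 2.05% ± 0.158 (SD, n = 2). These intervals reflect counting error alone, since PCR copies of a molecule were counted as separate reads. The 2 largest shares belonged to the regulators, with 0.706% and 0.859% for the 11 Srsf genes and 0.672% and 0.754% for the 18 Hnrnp genes. The 13 Prpf genes took 0.220% and 0.237%, the 6 Sf3b genes 0.196% and 0.187%, the 11 Snrp genes 0.131% and 0.116%, and the 3 Sf3a genes 0.0113% and 0.00711%. Srsf, Hnrnp and Prpf genes thus took more of replicate 2, and Snrp, Sf3a and Sf3b genes more of replicate 1. The 10 most counted members (Srsf1, Sf3b1, Srsf10, Hnrnph1, Hnrnpdl, Srsf2, Srsf3, Hnrnpa2b1, Srsf5 and Srsf7) held 49.8% of the members' counts in replicate 1 and 53.5% in replicate 2.

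**Figure D1:**
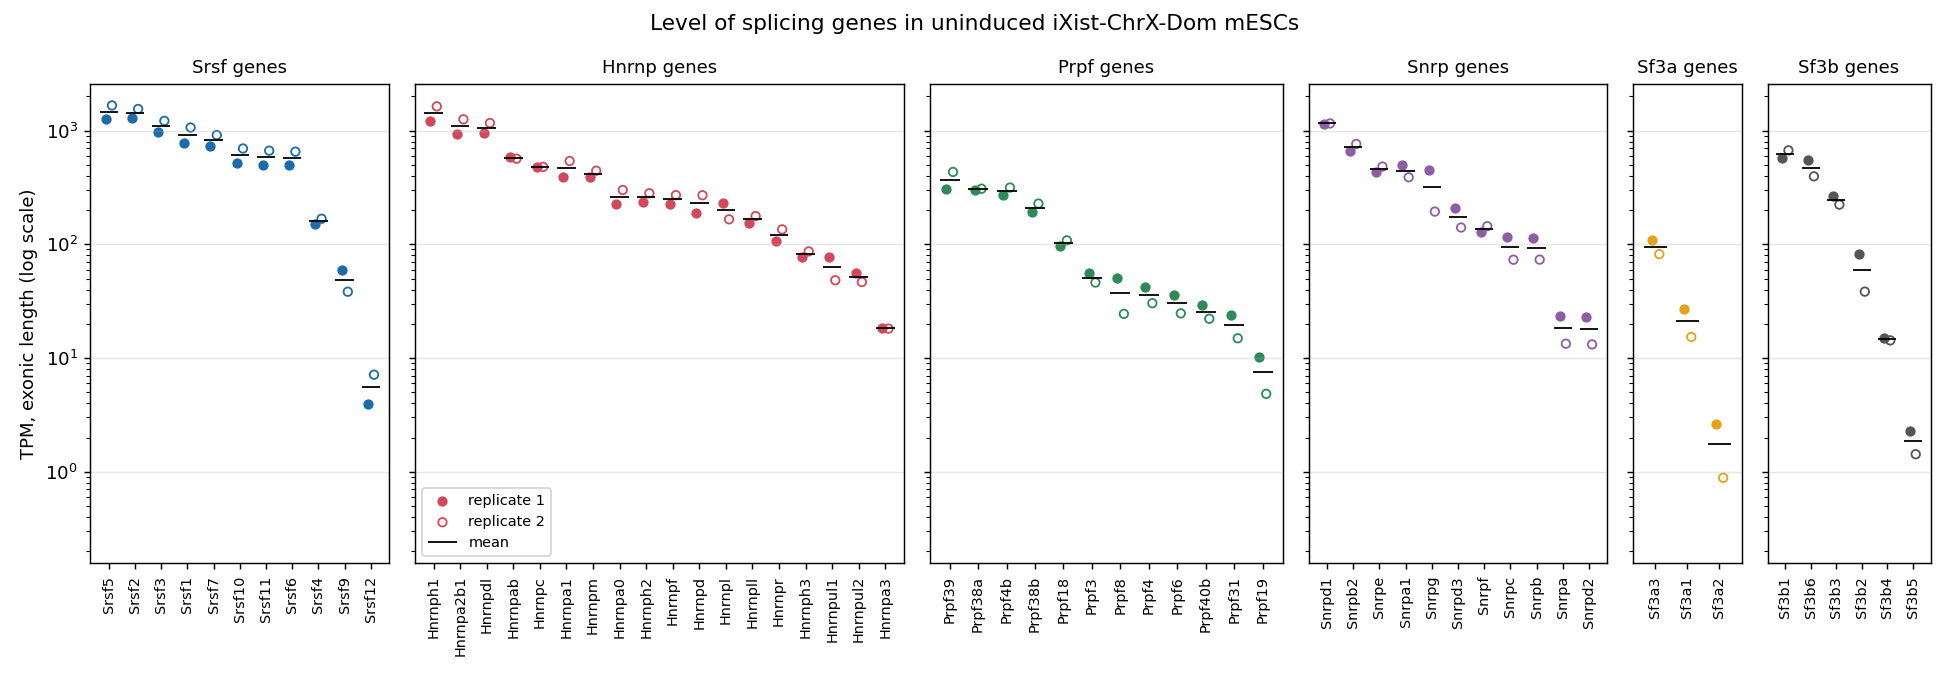
TPM (exonic length, log scale) of 61 of the 62 splicing genes by family, in order of the mean. Filled points are replicate 1, open points replicate 2 and black lines their mean. Family medians run from 608 TPM for Srsf genes to 21.1 TPM for Sf3a genes, and the 8 highest Srsf genes lie between 574 and 1467 TPM.

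SR genes were the highest family, with a median of 608 TPM (521 in replicate 1 and 696 in replicate 2). Srsf5 led all members, with 1271 and 1663 TPM (mean 1467 ± 277, SD, n = 2). Its count is uncertain, since 27.8% of its 50-base words occur in pseudogene transcripts. Srsf2, whose protein binds exonic enhancers, had 1297 and 1548 TPM (mean 1422 ± 178), and Srsf3, which also serves in mRNA export, 977 and 1216 TPM (mean 1096 ± 169). The ranges of Srsf5 and Srsf2 over the replicates overlapped, while both values of Srsf3 were below both of Srsf2. Srsf1, the classical splicing factor SF2/ASF, had 770 and 1063 TPM. At the other end were Srsf9, with 58.9 and 38.3 TPM, and Srsf12, with 3.96 and 7.13 TPM from 97 and 140 counts. Srsf5 was 264-fold above Srsf12, and 722-fold on span TPM. Srsf4, with 150 and 168 TPM, lay between the 8 high SR genes and these low ones.

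Hnrnp genes had a median of 254 TPM, 230 in replicate 1 and 276 in replicate 2. Hnrnph1, which binds runs of G, was highest with 1222 and 1631 TPM (mean 1427 ± 289, SD, n = 2). It was followed by Hnrnpa2b1, an A/B type protein that binds splicing silencers, with 931 and 1256 TPM (mean 1093 ± 230), and by Hnrnpdl, a relative of Hnrnpd, with 961 and 1165 TPM (mean 1063 ± 144). Hnrnpa2b1 and Hnrnpdl overlapped. Hnrnpul2 had 55.8 and 46.6 TPM, and Hnrnpa3 was lowest with 18.4 and 18.1 TPM (mean 18.3 ± 0.174). Of the exonic bases of Hnrnpa3, 29.5% lie in the gene Gm6793 on the same strand, and 20.6% of its 50-base words occur in pseudogene transcripts, so its count is uncertain. The same holds for Hnrnpa1, with 389 and 540 TPM, which shares 80.7% of its exonic bases with Gm10052 and 43.7% of its words with pseudogenes. X-linked Hnrnph2 had 237 and 281 TPM, near the family median.

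Prpf genes were lower, at a median of 50.9 TPM, with 6 genes at 100 TPM or more. Prpf39, a partner of the U1 snRNP, had 307 and 433 TPM (mean 370 ± 89.0, SD, n = 2). Prpf38a, which joins when the spliceosome is activated, had 302 and 308 TPM (mean 305 ± 4.60). Proteins of the tri-snRNP were lower. Prpf8, the large U5 protein that cradles the catalytic center, had 50.9 and 24.5 TPM, Prpf3 and Prpf4 of U4/U6 had means of 50.9 and 36.1 TPM, and Prpf31, also of U4/U6, had 23.7 and 14.9 TPM. Prpf19, the ubiquitin ligase of the complex named after it, was lowest with 10.2 and 4.84 TPM (mean 7.54 ± 3.81). Prpf39 stood 49.0-fold above Prpf19, but 17.2-fold on span TPM, and the fold was 30.0 in replicate 1 and 89.4 in replicate 2.

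Subunits of the same particle differed widely in mRNA level. The 7 Sm proteins form a ring with 1 copy of each, yet Snrpd1 had 1153 and 1154 TPM (mean 1154 ± 0.364, SD, n = 2) and Snrpd2 had 22.8 and 13.2 TPM (mean 18.0 ± 6.84), from 93 and 43 counts. This was a 64.1-fold difference, 30.6-fold on span TPM and 112-fold with exons beyond the counted span included. Snrpe had 433 and 482 TPM (mean 458 ± 34.9). Between it and Snrpd2 were Snrpg at 322 TPM, Snrpd3 at 175, Snrpf at 136 and Snrpb at 92.9. Of the proteins particular to one snRNP, Snrpb2 and Snrpa1 of U2 were high, Snrpb2 with 664 and 763 TPM (mean 713 ± 69.8) and Snrpa1 with 495 and 388 TPM. Snrpc of U1 had 116 and 73.2 TPM, and Snrpa of U1 23.2 and 13.4 TPM (mean 18.3 ± 6.95). Copies elsewhere in the genome may take reads from this family: at least 20% of the words of 5 of 11 Snrp genes occur in pseudogene transcripts, 52.8% for Snrpg and 36.4% for Snrpd2.

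SF3b showed a wider spread than SF3a (335-fold against 54.3-fold), but only through Sf3b5, which had few counts. Without Sf3b5 the SF3b range was 42.3-fold. Sf3b1, which holds the branch site helix and lies at chr1:54985169-55027478, had 573 and 670 TPM (mean 621 ± 67.9, SD, n = 2). Sf3b6, which contacts the branch point adenosine, had 549 and 396 TPM (mean 472 ± 108). Sf3b3, a large scaffold protein, had 265 and 223 TPM (mean 244 ± 29.9). The remaining subunits were lower. Sf3b2 had 81.3 and 38.4 TPM, and Sf3b4 had 15.1 and 14.3 TPM, with 55.8% of its words in pseudogenes. Sf3b5 had 14 and 7 counts, or 2.29 and 1.43 TPM. Sf3b1 thus stood 335-fold above Sf3b5 (49.4-fold on span TPM and 1747-fold with exons beyond the counted span included) and 42.3-fold above Sf3b4 (18.4-fold). In SF3a, Sf3a3 had 109 and 81.9 TPM, Sf3a1 26.9 and 15.3 TPM, and Sf3a2 2.62 and 0.884 TPM from 37 and 10 counts. Sf3a3 stood 54.3-fold above Sf3a2 (19.4-fold on span TPM), 41.4-fold in replicate 1 and 92.7-fold in replicate 2. Sf3a2 had the lowest mean TPM of the members (1.75, against 1.86 for Sf3b5), but the ranges of these 2 genes overlapped, and with exons beyond the counted span included Sf3b5 was the lower, at 0.394 TPM.

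**Figure D2:**
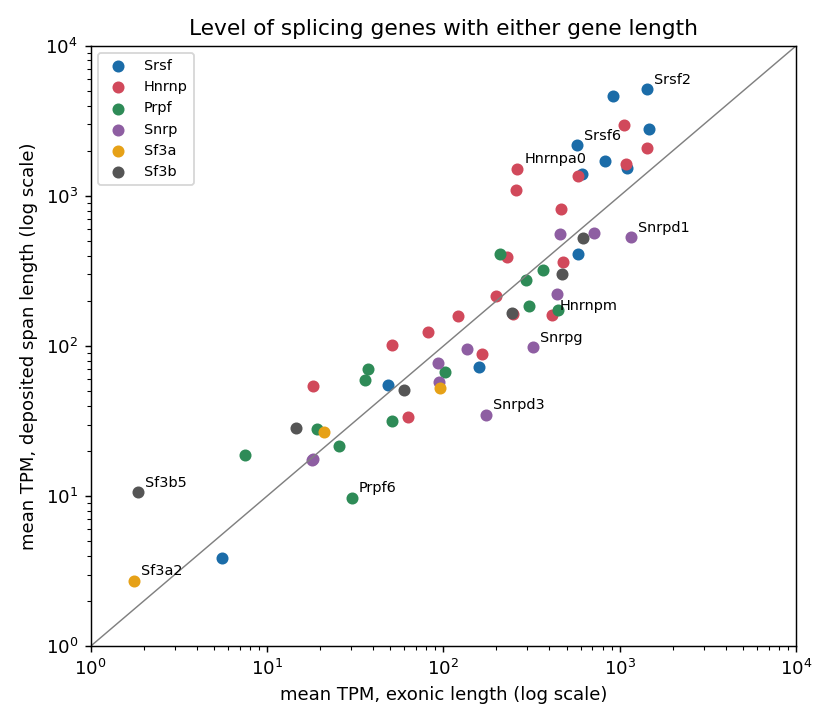
Mean TPM computed with the exonic length (horizontal axis, log scale) and with the deposited span length (vertical axis, log scale) for the 62 splicing genes, colored by family; the line marks equal values. Genes with little intron such as Srsf2 and Hnrnpa0 rise above the line and genes with long introns such as Snrpd3 and Prpf6 fall below it, but Sf3a2 remains the lowest gene on both axes.

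The order depended in part on the length used. On span TPM the Srsf median was 1529, the Hnrnp median 291 and the Prpf median 67.2, while the Snrp median was 96.2 and the Sf3b median 108, both still above that of Prpf. Srsf2 became the highest member with 5143 span TPM, and Srsf5 moved from rank 1 to rank 4. Snrpd1 moved from rank 4 to rank 17. Hnrnpdl became the highest Hnrnp gene (2991 span TPM, against 2084 for Hnrnph1) and Hnrnpul1 the lowest (33.5, against 54.1 for Hnrnpa3). Prpf6 became the lowest Prpf gene (9.75, against 18.7 for Prpf19). Across the 59 members that had 50 counts or more in both libraries, the orders by exonic and by span TPM had a Spearman's rho of 0.92 (0.82 over 9231 autosomal genes), and the replicates ranked the same members with a rho of 0.98. These are correlations across genes of the same libraries and are given as descriptions.

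The 2 libraries differed in these genes by more than counting error. By a two-sided exact binomial test against the library totals, with Benjamini-Hochberg adjustment over 14536 genes of at least 10 counts, 53 of 62 members differed, against a background of 60.8% of all genes tested. Members had a median of 176 CPM (counts per 1000000), against 1.47 for all genes of the table. The test calls smaller differences at higher counts. The shares called, here and below, therefore do not show that members varied more than other genes. Higher in replicate 2 were 26 members, against 15.1% of all genes, and lower were 27, against 45.7%. Scaling by TMM factors moved every log2 ratio up by 0.26 and gave 35 higher and 22 lower, against backgrounds of 57.7% in either direction, 28.8% higher and 28.9% lower. Under these factors Hnrnpab, Hnrnpc and Snrpd1 went from lower to higher. The median log2 ratio of replicate 2 over replicate 1 was 0.07 for 59 members and −0.17 for 9736 genes.

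Of 11 Srsf genes, 9 were higher in replicate 2 and 1, Srsf9, was lower (10 and 1 with TMM factors). Of 18 Hnrnp genes, 11 were higher and 5 lower (14 and 2). Of 11 Snrp genes, 1 was higher and 8 were lower (4 and 7), and all 3 Sf3a genes were lower under both scalings. Prpf genes had 4 higher and 7 lower (6 and 6), and Sf3b genes 1 higher and 3 lower under both. Of all genes tested, 15.1% were higher and 45.7% lower (28.8% and 28.9% with TMM factors). The shares lower by library totals, 53.8% of Prpf and 50.0% of Sf3b genes, were near that of all genes. The median log2 ratio was 0.29 for Srsf, 0.13 for Hnrnp, −0.37 for Prpf, −0.34 for Sf3b, −0.56 for Snrp and −0.70 for Sf3a genes. The ranges overlapped, from −0.71 to 0.75 for Srsf, −0.77 to 0.43 for Hnrnp and −1.31 to 0.11 for Snrp genes, and differences between families were not tested, since members of a family are not replicates.

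**Figure D3:**
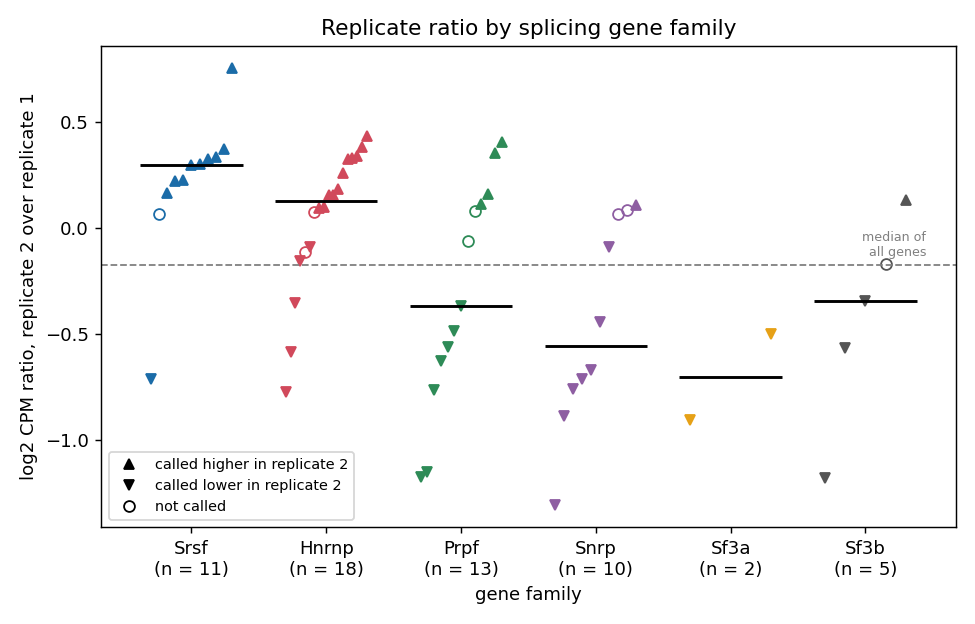
Log2 ratio of CPM, replicate 2 over replicate 1, for the 59 members with at least 50 counts in each replicate. Triangles mark genes called by the exact binomial test, open circles genes not called, black lines family medians and the dashed line the median of all genes (−0.17); 10 of 11 Srsf genes lie above the dashed line, and 6 of 10 Snrp genes lie at −0.44 or below.

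Among the 59 members with 50 counts or more in both replicates, Srsf12 had the largest log2 ratio, 0.75, with 4.09 CPM (counts per 1000000) in replicate 1 and 6.90 in replicate 2 (adjusted p = 0.00017, exact binomial test with Benjamini-Hochberg adjustment, as for every gene in this comparison). Hnrnpd, a binder of AU-rich elements, had 448 and 606 CPM (log2 ratio 0.43). Prpf39 (0.40), Hnrnpa1 (0.38) and Srsf1 (0.37, 1503 and 1946 CPM) came next. Of these 59 members, the 5 with the lowest ratios follow. Snrpg had 62.2 and 25.2 CPM (log2 ratio −1.31), Sf3b2, an SF3b protein close to the branch site, 92.0 and 40.7 CPM (−1.18), Prpf19 22.3 and 9.91 CPM (−1.17), Prpf8 133 and 59.9 CPM (−1.15), and Sf3a1, an SF3a protein, 46.4 and 24.8 CPM (−0.90). All 10 differed in this test and in the same direction with TMM factors. Under the GC trend described below, Prpf39 was no longer called and the others kept their direction. Not called were 9 members, among them Sf3b4 (213 and 162 counts), Sf3b5, Snrpe, Snrpf and Srsf4. Of the 3 members under 50 counts in a replicate, Sf3a2 was lower in replicate 2 (37 and 10 counts, log2 ratio −1.61, adjusted p = 0.0014 in the same exact binomial test), and so was Snrpd2 (93 and 43 counts, adjusted p = 0.0016 in that exact test).

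GC content of the transcript moved with these ratios. Over the 59 members the log2 ratio and the GC percentage had a Spearman's rho of −0.63, and over 9231 autosomal genes −0.66. The mean TPM also went down with GC content, with a rho of −0.51 over the 59 members and −0.44 over the autosomal genes (−0.57 over all 62 members). The 31 members below the members' median GC content of 46.8% had a median of 465 TPM, and 21 of them were higher and 4 lower in replicate 2, against 38.4% and 18.1% of the 4674 genes tested on that side. The 31 above it had a median of 62.8 TPM, with 5 higher and 23 lower, against 4.04% and 59.3% of 9704 genes. Sf3a2 (GC content 62.0%), Sf3b5 (58.9%), Snrpd2 (55.8%) and Sf3b4 (55.0%) were on this side, but so was Srsf2 (50.0%), while the lowest Srsf gene, Srsf12 (44.9%), and the lowest Hnrnp gene, Hnrnpa3 (39.9%), were on the other. The points share their libraries, and whether GC content accounts for the level or the ratio was not tested.

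**Figure D4:**
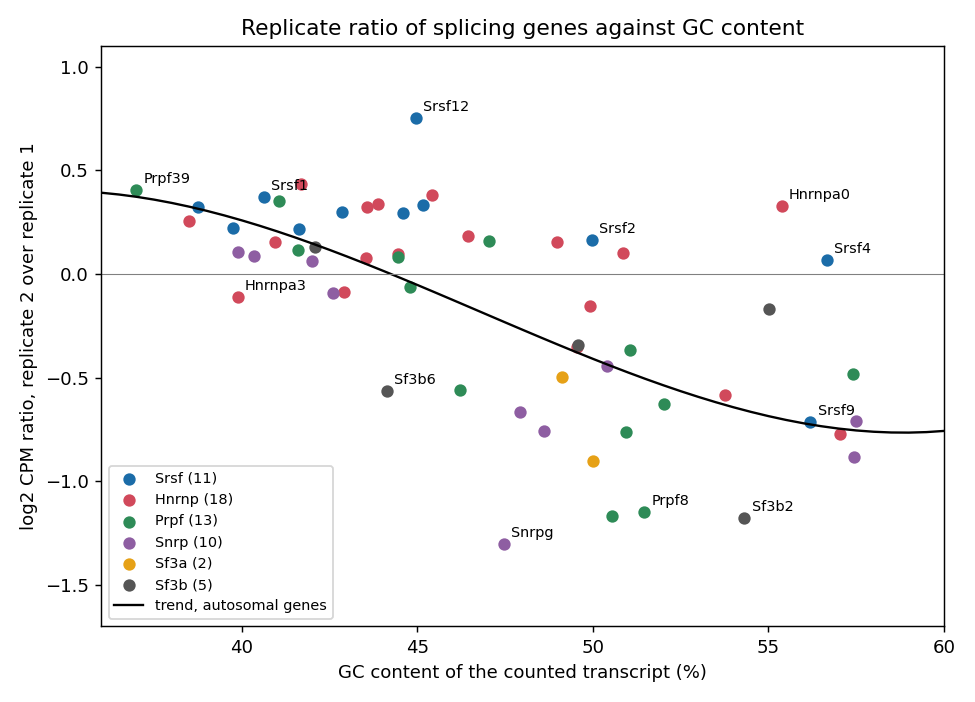
Log2 ratio of CPM, replicate 2 over replicate 1, against GC content of the transcript (%) for the 59 members with at least 50 counts in each replicate, colored by family. The black line is the trend over autosomal genes; Hnrnpa0, Srsf4 and Srsf12 lie 1.03, 0.80 and 0.80 above it and Snrpg 1.07 below it.

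With the GC trend over autosomal genes as the expected ratio, 43 members differed by the exact binomial test, 23 higher and 20 lower, against backgrounds of 44.8% of 14378 genes in either direction, 23.0% higher and 21.8% lower. These were not all the genes called against the totals: 31 of them had the same direction there, 5 had not been called (Hnrnpa3, Prpf18, Sf3b4, Snrpe and Srsf4) and 7 changed direction. Hnrnpab and Prpf40b went from lower to higher, and Srsf3, Hnrnph2, Hnrnpr, Prpf4b and Snrpb2 from higher to lower, while 15 members were no longer called, Sf3a2 and Snrpd2 among them. The Srsf genes had 8 higher and 1 lower, the lower one now being Srsf3, with Srsf9 not called. The Hnrnp genes had 10 higher and 4 lower. Of the Snrp genes, 0 were higher and 6 lower, while Prpf genes had 4 higher and 5 lower, Sf3b genes 1 and 2, and Sf3a genes 0 and 2. The largest distances above the trend were those of Hnrnpa0 (1.03 on the log2 scale, GC content 55.4%), which binds AU-rich elements, and of Srsf4 (0.80, GC content 56.7%), with 211 and 265 CPM for Hnrnpa0 and 118 and 124 CPM for Srsf4. Srsf2 lay 0.57 above it. The largest distances below it were those of Snrpg (−1.07), Sf3a2 (−0.91, not called under this trend), Prpf19 (−0.72) and Prpf8 (−0.64).

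The annotation of these genes differed from that of other expressed genes in ways that bear on counting. NMD transcripts are annotated in GENCODE M21 for 29 of the 62 members (46.8%), against 28.8% of 11749 coding genes of at least 1 TPM, and 9 of the 11 Srsf genes are among these 29. Retained-intron transcripts are annotated for 45 members (72.6%), against 59.1%. Counts per gene do not separate such transcripts from productive mRNA. At least 20% of the words of 10 members (16.1%) occur in pseudogene transcripts, against 3.57%. Besides Srsf5 and the genes named above for shared sequence these include Hnrnpf (49.0%, with 228 and 270 TPM), Snrpf (22.6%), Snrpa (22.5%) and Snrpe (20.8%).

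Genes outside the 62 that act in the same steps were taken as lists, to be read against the shares of all genes called, 15.1% higher and 45.7% lower in replicate 2 (28.8% and 28.9% with TMM factors, whose counts follow in parentheses). The kinases of SR proteins had a median of 84.4 TPM over 7 genes, and 2 were higher and 3 lower in replicate 2 (3 and 3). Clk1, a nuclear kinase that phosphorylates SR proteins, was highest with 976 and 1022 TPM, and Srpk3, known from muscle, lowest with 2 counts and 1 count. The 19 SR-like factors had a median of 99.6 TPM, with 7 higher and 7 lower in replicate 2 (13 and 3, and 10 and 6 under the GC trend). In this list Tra2a, a partner of SR proteins at exonic enhancers, had 1070 and 1483 TPM and neuronal Srrm4 only 18 and 10 counts. Proteins of U1, U5 and the tri-snRNP named Snrnp and their partners had a median of 50.9 TPM over 13 genes. None was higher and 12 were lower in replicate 2 (0 and 12). Snrnp27 led with 317 and 224 TPM, and Sart1, a tri-snRNP protein, was lowest with 3.30 and 0.912 TPM. Under the GC trend 2 of the 13 were higher and 9 lower.

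The 15 U2 auxiliary and branch site factors outside SF3 had a median of 174 TPM. They were led by the helicase Dhx15 with 851 and 969 TPM and ended with U2af1l4 with 10.4 and 2.57 TPM. In replicate 2, 4 were higher and 11 lower (7 and 6 with TMM factors, 6 and 4 under the GC trend). The 21 genes of the PRP19 complex and the step helicases had a median of 64.1 TPM, with 0 higher and 19 lower (3 and 11 with TMM factors), from Cwc15 (363 and 330 TPM) to the helicase Dhx38 (6.45 and 3.07 TPM). The LSm ring of U6, built like the Sm ring, was also uneven: Lsm8 had 400 and 474 TPM and Lsm7 5.23 and 4.92 TPM, an 86.2-fold range over 7 genes, of which 1 was higher and 4 lower (2 and 3).

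The 9 minor spliceosome proteins, which act on a rare intron class, had a median of 25.7 TPM, with 3 higher and 4 lower (4 and 4), and ran from Snrnp48 (468 and 541 TPM) to Snrnp35 (4.29 and 1.16 TPM). The 5 exon junction complex genes had a median of 48.7 TPM, with 0 higher and 3 lower (2 and 3), from Magoh (892 and 977 TPM), a core protein, to Casc3 (44.4 and 34.7 TPM). The 15 hnRNP-related genes with other names had a median of 163 TPM, with 9 higher and 4 lower in replicate 2 (11 and 2). Ewsr1, an RNA-binding protein of the FET family, was highest among these, with 442 and 551 TPM, and Pcbp4 lowest with 43 and 8 counts.

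Splicing regulators known from particular tissues were much lower. Of 22 listed, 21 were in the table under the listed symbol, 18 had at least 10 counts in each replicate, and the median was 5.87 TPM. Mbnl2, of the muscleblind family, was the highest with 101 and 135 TPM, and the neural gene Celf3 had 1 count in each replicate. Of the 20 tested, 9 were higher and 3 lower in replicate 2 (11 and 0 with TMM factors, 9 and 1 under the GC trend). Under the GC trend 23.0% of all genes were higher and 21.8% lower. SR kinases then had 1 higher and 4 lower, and the PRP19 complex and step helicases 3 and 12. The LSm ring had 0 and 3, minor spliceosome proteins 1 and 3, and the exon junction complex 1 and 3. The hnRNP-related genes had 11 and 2.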

How the data were processed

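Messenger RNA from 2 libraries of 1 group was analysed. The deposited counts are fragments per gene that the authors obtained with featureCounts 1.5.2, run reverse-stranded over whole transcript spans on mm10, so intronic fragments count. Bowtie2 2.3.2 and STAR 2.4.2a are named in the submitters' processing notes, without their role for these libraries. Count columns were matched to samples by name, which lacks a letter b present in the descriptions.

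Counts were divided by the GENCODE M21 basic exonic length inside the counted span and scaled to 1000000 (TPM). This length was found for 22101 genes and all 62 members. Libraries were compared by a two-sided exact binomial test (scipy 1.17.1) with Benjamini-Hochberg adjustment at 0.05 over genes of at least 10 counts in total. The test was checked on simulated counts. Log2 ratios were taken on CPM after adding 0.5 counts. Alternatives were TMM factors (edgeR 4.0.16), DESeq2 1.42.0 size factors, a GC trend (polynomial of degree 3 on autosomal genes of at least 50 counts in each replicate), other count filters and lengths. Shared words were 50 bases of the longest transcript found in 13235 pseudogene transcripts.

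At these depths 0 counts could stand for as many as 3, which is 0.126 CPM in replicate 1 and 0.148 CPM in replicate 2. Full values were given for the 3 highest and 2 lowest members of each family (all members for Sf3a and Sf3b), the 5 largest and 5 smallest ratios, members under 10 counts, and members with at least 20% of exonic bases in another gene or 50% of words in pseudogenes. In each other list the highest and lowest genes were named. Other genes were added after their values were seen. Values of 1 member are not reported here, though it is part of all counts and medians. The members and lists were chosen with earlier results of these data known. Promoters were those of RefSeq starting within 1000 bases of the 5′ end in the table.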

Additional observations from a re-analysis of the deposited data

How the results depend on the processing

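Of 59 alternatives over 12 results, 43 stayed within the replicate spread or within 1.5 times the count and 16 moved. For levels this tally had no outcome for a reversal. It also set values in CPM against values in TPM, which are different units. Calls of single members did reverse, 7 under the GC trend and 3 with TMM factors. The median level of the members, 219 TPM, was 161 with the deposited length, 176 CPM with no length, 229 with members of at least 10 counts in each replicate and 183 with exons beyond the counted span included, an alternative chosen after seeing the data. It ran from 209 to 217 TPM when 1 replicate was left out. With the deposited length the family medians became 1529 (Srsf), 291 (Hnrnp), 67.2 (Prpf), 96.2 (Snrp) and 108 TPM (Sf3b). With no length they were 315 (Hnrnp), 96.4 (Prpf), 40.7 (Snrp) and 35.6 CPM (Sf3a), so that Snrp fell below Prpf. These shifts follow from the lengths divided by. The median log2 ratio of the members was 0.32 with TMM factors and 0.38 with DESeq2 size factors, since these raise all ratios by 0.26 and 0.31.

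With 2 libraries of 1 group, depth limits mainly Sf3b5, Sf3a2 and Snrpd2. Leaving out a replicate left no test of the difference between libraries. No paired analysis was possible because the samples form 1 group.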
